A study of Rattus norvegicus with 12 samples.

Results

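The transcripts described here are those of the mitochondrial genome and of the nuclear genes that copy, stabilize and translate them. They were chosen by name: every entry beginning with Mt-, every mitoribosomal protein gene named Mrpl or Mrps plus a number, and the factors Tfam, Polrmt, Tfb1m, Tfb2m, Lrpprc and Slirp. The rule found 93 of the 23526 named genes: 13 mitochondrial-genome transcripts, 44 genes of the large (Mrpl) and 30 of the small (Mrps) subunit of the mitochondrial ribosome, and the 6 factors. Another 3 entries, mrpl11, mrpl24 and mrpl9, are spelled in lower case and fell outside the rule. RNA came from the free walls of the right ventricle (RV) and left ventricle (LV) of 6 adult male Sprague-Dawley rats, 3 to 4 months old. Of these, 3 rats had spent 2 weeks at 10% O2 in a hypobaric chamber (groups RVH and LVH) and 3 had been housed in room air (RVN and LVN), which gave 4 groups of 3 libraries with both ventricles of each heart. The sample titles carry CH or NT, which were read as hypoxia and normoxia, and the hypoxic rats are numbered 1, 2 and 4. These were unsorted pieces of ventricular wall, so fewer cells of a type and less RNA per cell cannot be told apart.

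Mitochondria carry a small circular genome that encodes core subunits of respiratory complexes I, III and IV and of the ATP synthase. The nuclear-encoded polymerase Polrmt transcribes both strands into long precursors with the help of Tfam and Tfb2m, the precursors are cut at their tRNAs, and Lrpprc with Slirp stabilizes the released messengers. The proteins are then made on a dedicated ribosome whose protein subunits are all imported from the cytosol, so respiratory capacity in heart muscle, one of the tissues richest in mitochondria, rests on both genomes.

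The promoters of 2 nuclear genes that were lower in hypoxia, Mrps27 (a small-subunit protein) and Tfb2m (a factor that opens mitochondrial promoters), are shown because each holds a core motif of a regulator known from this class of genes. The sequences are from RefSeq (rat build GRCr8), 250 bases before to 50 after the annotated start, 5′ to 3′ on the gene's strand, with the motif letters in capitals. In Mrps27 (chr2:32473954-32474253, plus strand) the capitals mark the ETS/GABP core CCGGAAGT, read on the opposite strand from 47 bases before the start, and the YY1 core ATGGCGGC from base 33 after it. In Tfb2m (chr13:93828545-93828844, minus strand) they mark the NRF1 core GCGCATGCG, read on the opposite strand from 46 bases before the start.
Mrps27: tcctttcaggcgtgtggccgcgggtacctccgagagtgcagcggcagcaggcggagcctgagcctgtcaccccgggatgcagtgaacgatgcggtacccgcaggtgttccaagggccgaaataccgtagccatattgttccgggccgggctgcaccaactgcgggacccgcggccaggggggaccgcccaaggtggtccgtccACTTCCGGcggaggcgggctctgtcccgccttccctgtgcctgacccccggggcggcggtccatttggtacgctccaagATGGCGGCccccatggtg
Tfb2m: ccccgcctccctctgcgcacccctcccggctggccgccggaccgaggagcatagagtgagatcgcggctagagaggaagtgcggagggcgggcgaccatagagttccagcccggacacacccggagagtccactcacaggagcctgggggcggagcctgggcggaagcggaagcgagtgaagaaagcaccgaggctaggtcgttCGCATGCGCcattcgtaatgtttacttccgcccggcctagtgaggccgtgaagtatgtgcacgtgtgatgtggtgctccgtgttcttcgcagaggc
Of the 80 nuclear genes, 64 matched a RefSeq promoter and 25 of these held at least 1 of 4 motifs searched on both strands. The YY1 core was found in 13 of 64 (20.3%, against 2.53% of all 33469 promoters of that length, which include those of non-coding genes), the ETS/GABP core in 9 (14.1%, against 3.81%) and the NRF1 core in 6 (9.38%, against 1.52%). The oestrogen-related receptor element TCAAGGTCA was in 0 of 64 and in 0.433% of all promoters. Tfam held the ETS/GABP core and Slirp the YY1 core, while these letters were not in the windows of Polrmt, Lrpprc, Tfb1m, Mrpl4, Mrpl40 or Mrps6. A match is a string of letters and not a measured binding site.

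Levels are in TPM, a unit scaled for transcript length whose sum is 1000000 in every library, and the mitochondrial-genome share is the percentage of that sum. Fold changes are log2 values from edgeR's quasi-likelihood test with TMM scaling, given with their standard error (SE), and a gene was called at an adjusted p (Benjamini-Hochberg over all genes tested) under 0.05. Hypoxic and normoxic hearts were compared with the RV and LV counts of each rat summed (3 hearts against 3, 14240 genes). Each ventricle was also tested alone, and RV against LV was tested over all 6 hearts with the rat as a block (13756 genes). Of the 93 genes, 92 passed the filter on low counts; Mrps21l did not, being listed at 0 in all libraries but 1. Estimated counts summed to between 21468274 and 39991848 per library. Myocyte markers (8 genes, Myh6 and Tnnt2 among them) summed to 39726 to 44505 TPM in RVH against 45074 to 48871 in RVN, and to 48646 to 52080 TPM in LVH against 41375 to 48878 in LVN. Macrophage markers (6 genes) ranged from 102.2 to 179.0 TPM in RVH against 63.5 to 85.0 in RVN, and from 40.3 to 108.0 TPM in LVH against 35.3 to 49.2 in LVN. Markers of dividing cells (5 genes) reached 21.5 to 30.3 TPM in RVH and 13.5 TPM in the LVH library of rat 1, against at most 4.32 TPM in the other 8 libraries. That LVH library also held 524.5 TPM of atrial myocyte markers (Myl7, Sln and Myl4), against 19.03 and 33.66 TPM in the other LVH libraries, and results without it are given below. Among the RVN libraries these markers ranged from 41.9 to 235.3 TPM. Haemoglobin genes took 0.723% to 3.05% of hypoxic libraries against 0.366% to 0.584% of normoxic ones. The part of these differences in the results was not tested.

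Transcripts of the mitochondrial genome made up a smaller share of the TPM in libraries of hypoxic ventricles. In the RV they took 42.98%, 38.26% and 44.10% of the TPM in RVH libraries, against 45.37%, 45.07% and 45.78% in RVN libraries. In the LV they took 39.66%, 42.33% and 38.74% in LVH, against 50.56%, 46.93% and 48.01% in LVN. Every hypoxic library lay below every normoxic library. The group means were 41.8 ± 3.10% in RVH against 45.4 ± 0.357% in RVN, and 40.2 ± 1.87% in LVH against 48.5 ± 1.87% in LVN (SD, n = 3). The difference of the means was -3.63 percentage points in the RV and -8.26 in the LV, and -5.94 over whole hearts (-6.42 to -5.43 with each heart left out in turn). RVH libraries averaged 1.54 points above LVH libraries, and RVN libraries 3.09 points below LVN libraries (difference -3.09). The RV share was above the LV share of the same heart in 2 of 6 hearts. A share summed over genes chosen with results known carries no p-value here.

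**Figure D1:**
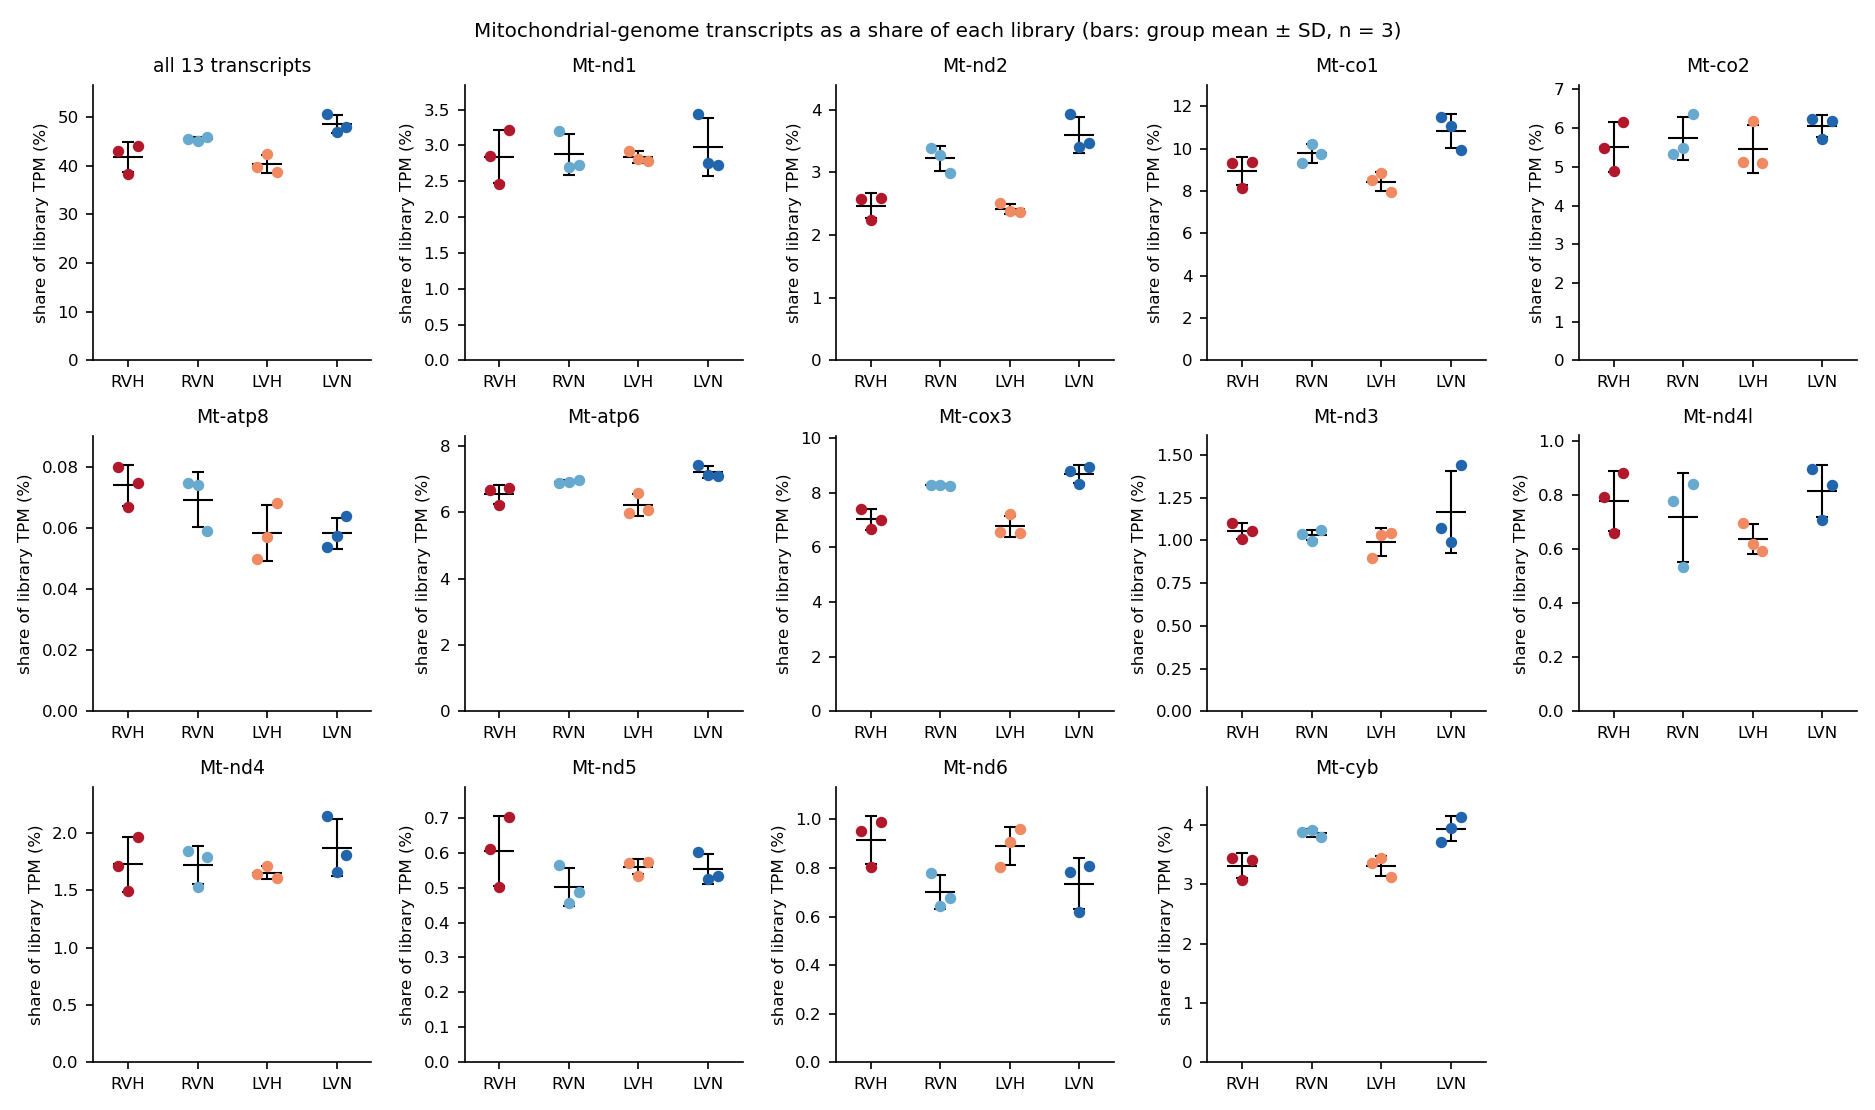
Share of library TPM (%, vertical axes from 0) of all 13 mitochondrial-genome transcripts together and of each, in genome order, for RVH, RVN, LVH and LVN; points are libraries, bars the group mean ± SD (n = 3). The hypoxic totals lie between 38.26% and 44.10%, all below the normoxic totals of 45.07% to 50.56%, while Mt-nd6 lies at 0.805% to 0.991% in hypoxic libraries against 0.618% to 0.809% in normoxic ones.

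Of the 13 transcripts, 3 were called lower in hypoxic hearts and 0 higher. Mt-nd2, a membrane-arm subunit of complex I, was at 25763, 22454 and 25831 TPM in RVH against 33924, 32722 and 29945 TPM in RVN. In the LV it was at 25072, 23847 and 23653 TPM in LVH against 39275, 34089 and 34628 TPM in LVN. No hypoxic library reached a normoxic one. Its mean TPM fell by 28.3% in hypoxic libraries, and on the TMM scale, relative to the other genes, it fell by 34.9% in hypoxic hearts (log2 fold change -0.62 ± 0.10, adjusted p = 0.0241). Mt-cox3, the third core subunit of complex IV, ranged from 65111 to 74096 TPM in hypoxic libraries (median 68304), against 82493 to 89596 TPM in normoxic ones (median 83195). Its groups did not overlap in either ventricle; its mean TPM fell by 18.7% and its TMM-scaled value in hearts by 26.1% (-0.44 ± 0.09, adjusted p = 0.0348). Mt-cyb, the cytochrome b of complex III, ranged from 30659 to 34460 TPM in hypoxic libraries (median 33798), against 37086 to 41348 TPM in normoxic ones (median 38959). It too showed no overlap; its mean TPM fell by 15.1% and its TMM-scaled value in hearts by 22.9% (-0.37 ± 0.08, adjusted p = 0.041). Of all genes tested in hearts, 3.53% were called lower and 4.24% higher, and 8 of the 92 members tested were called lower and 1 higher.

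The other 10 mitochondrial transcripts did not pass the test in hearts. Mt-co1, the catalytic core of complex IV and the most abundant transcript of the set, was at 79734 to 93527 TPM in hypoxic libraries against 93164 to 114882 TPM in normoxic ones, with only the edges overlapping (-0.39 ± 0.09, adjusted p = 0.0517). Mt-atp6, the proton-channel subunit of the ATP synthase, was at 59911 to 67191 TPM in hypoxic libraries against 68835 to 74240 TPM without overlap (-0.29 ± 0.09, adjusted p = 0.0923). The complex IV subunit Mt-co2 had a log2 fold change of -0.24 ± 0.10 (adjusted p = 0.159). Among the complex I subunits the values were -0.26 ± 0.14 for Mt-nd4l (adjusted p = 0.248), -0.23 ± 0.12 for Mt-nd4 (0.259), -0.22 ± 0.10 for Mt-nd3 (0.204) and -0.19 ± 0.13 for Mt-nd1 (0.376). Those for the complex I subunit Mt-nd5 and for Mt-atp8, the short ATP synthase subunit, were within 1 SE of 0. Mt-nd6 had a positive value (0.20 ± 0.13, adjusted p = 0.336). The median over the 13 transcripts was -0.24, against 0.01 over all genes tested, and 11 of 13 values were negative; scaled to plain library totals the median was -0.11, with 10 of 13 negative. Across all genes, TPM of the 6 hypoxic libraries lay entirely below the 6 normoxic ones in 1.5% and entirely above in 3.86%; for the mitochondrial genome this was so for 4 and 0 of 13 transcripts.

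The calls depended on which hearts were included. With hypoxic heart 1, hypoxic heart 2 or any normoxic heart left out, 0 members were called in the heart comparison, and without hypoxic heart 4 it was 16 lower and 0 higher. Calls over all genes also fell, from 604 higher and 503 lower to at most 49 higher and 27 lower. Without hypoxic heart 4 they rose to 1200 higher and 1071 lower of 14611 genes. The log2 fold change of Mt-nd2 stayed between -0.73 and -0.48 over the 16 alternatives tried, with an adjusted p of 6.27e-08 to 0.122, and 10 of the 16 called it. That of Mt-cox3 stayed between -0.47 and -0.30 and that of Mt-cyb between -0.41 and -0.24, and 9 of 16 called each.

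The ventricles taken alone gave the same direction for these 3 transcripts with fewer calls. Of all 13756 genes, 2209 were lower and 2080 higher at an unadjusted p under 0.05 in the RV. In the LV it was 1220 lower and 1200 higher. In LVH against LVN, Mt-nd2 was the only member called (-0.72 ± 0.15, adjusted p = 0.0486), while 0.669% of all genes were called lower and 0.698% higher. Mt-cox3 had -0.50 ± 0.15 (adjusted p = 0.134) and Mt-cyb -0.39 ± 0.15 (adjusted p = 0.202) there. In RVH against RVN, 0 of the 13 transcripts were called (3 had an unadjusted p under 0.05, all lower; DESeq2 called 1 and limma on log2(TPM + 1) called 2, all lower), with Mt-nd2 at -0.49 ± 0.15 (adjusted p = 0.0514), Mt-cox3 at -0.35 ± 0.15 (0.148) and Mt-cyb at -0.33 ± 0.15 (0.148). Leaving out any of the 6 LV libraries ended the call of Mt-nd2; without the LVH library of rat 2, Mt-cox3 was called in its place, and without that of rat 1, which held the atrial markers, 0 members were called. Calls over all genes also fell in those LV fits, from 96 higher and 92 lower to at most 89 higher and 68 lower. The effect of hypoxia in the RV minus that in the LV was 0.23 ± 0.21 for Mt-nd2 (adjusted p = 0.826). That difference was positive for 13 of 13 mitochondrial transcripts (median 0.16), but for 9 of 13 without the LVH library of rat 1 (median 0.05) or the RVH library of rat 4 (0.06), with medians of up to 0.35 when another library was left out. It was called for 0 of 92 members (1 at an unadjusted p under 0.05; 0 by DESeq2 and by the likelihood ratio test), where 0% of all genes were called.

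The make-up of the mitochondrial pool also differed between hypoxia and normoxia, and this comparison does not depend on how libraries are scaled. Mt-nd6, the complex I subunit encoded alone on the opposite strand, took 2.214%, 2.104% and 2.246% of the mitochondrial total in RVH, against 1.721%, 1.428% and 1.481% in RVN. In the LV it took 2.029%, 2.141% and 2.481% in LVH, against 1.545%, 1.317% and 1.684% in LVN. Its share in every hypoxic library was above that in every normoxic library, with a ratio of mean shares of 1.44. Its genome neighbour Mt-nd5 took 1.26% to 1.59% in hypoxic libraries against 1.01% to 1.24% in normoxic ones (ratio 1.26), again without overlap. Mt-nd2 went the other way, with 5.63% to 6.32% in hypoxic libraries against 6.54% to 7.77% in normoxic ones (ratio 0.822). These were the 3 transcripts of 13 whose shares did not overlap. Shares of a total are tied, so a fall in some raises others. As a share of the library, Mt-nd5 overlapped, at 0.502% to 0.702% in hypoxic libraries against 0.457% to 0.602% in normoxic ones. Mt-nd6 overlapped at the edge, at 0.805% to 0.991% against 0.618% to 0.809%. Within the mitochondrial total, Mt-cox3 overlapped at the edge, at 15.86% to 17.42% against 17.37% to 18.66% (ratio 0.931).

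The ratio of Mt-nd2 to Mt-nd6 in TPM gathers both shifts. It was 2.71, 2.79 and 2.61 in RVH against 4.34, 5.09 and 4.42 in RVN, and 3.12, 2.63 and 2.46 in LVH against 5.03, 5.52 and 4.28 in LVN. The highest hypoxic ratio stood below the lowest normoxic one, and the spread within each exposure was smaller than the gap between the group means. The pair was chosen after its values were seen, so the ratio is given without a test, and an exact permutation test of 3 hearts against 3 cannot go below a two-sided p of 0.10. The library kit keeps strand, but the strand setting of the authors' read assignment is not given in the sources used here, so RNA of Mt-nd6 and RNA from the strand opposite to it cannot be told apart. The libraries were made from polyadenylated RNA, so a change in a transcript's level and a change in its capture cannot be told apart either.

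**Figure D2:**
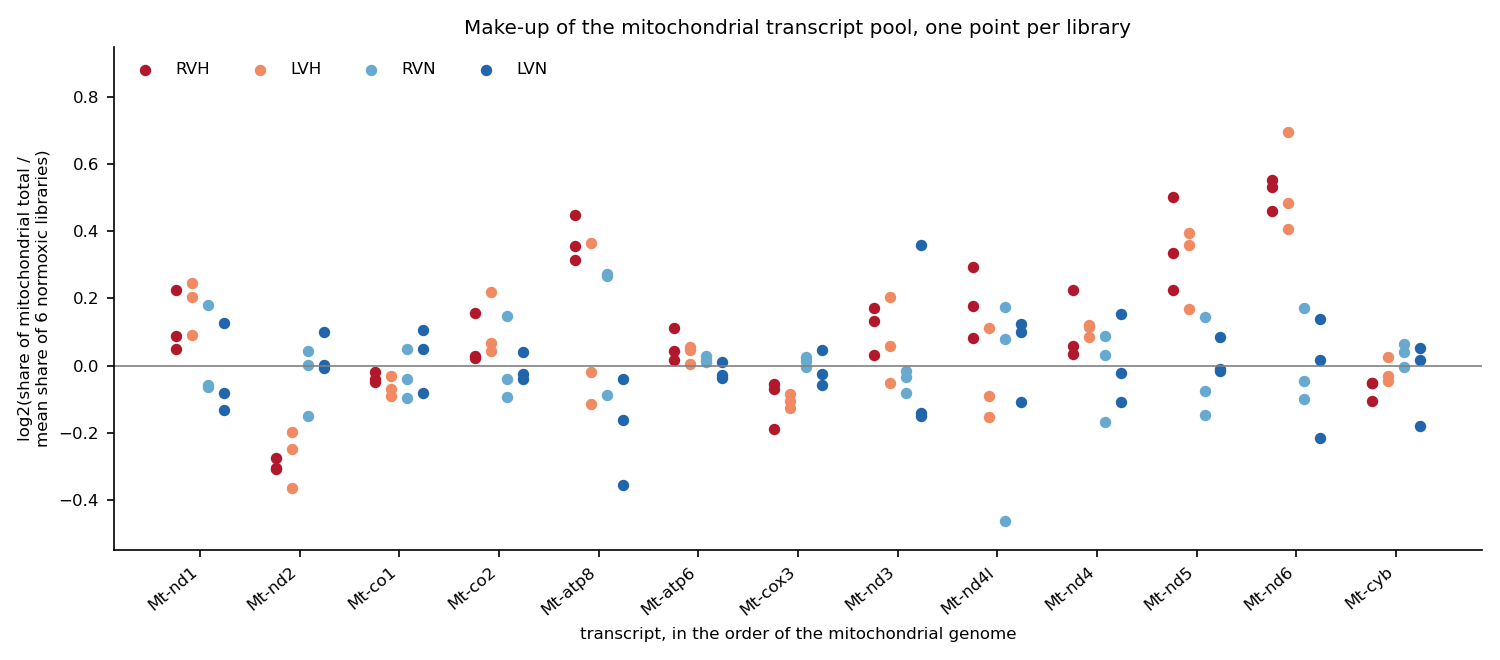
Share of each transcript in the mitochondrial total relative to its mean share over the 6 normoxic libraries (vertical axis, log2), in genome order (horizontal axis); each point is a library of RVH, LVH, RVN or LVN. Hypoxic points of Mt-nd6 (0.41 to 0.70) and Mt-nd5 (0.17 to 0.50) lie above all normoxic points, and those of Mt-nd2 (-0.36 to -0.20) lie below them.

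Messengers that share a molecule did not have equal TPM. Mt-atp8 and Mt-atp6 are read from a single overlapping messenger, yet Mt-atp6 exceeded Mt-atp8 by a TPM ratio of 83.1 to 119.7 in hypoxic libraries against 91.9 to 137.4 in normoxic ones. Mt-nd4 and Mt-nd4l, also a joint messenger, had a ratio of 2.16 to 2.77 in hypoxic libraries against 2.13 to 2.88 in normoxic ones. The groups overlapped for both ratios. The cause of the unequal levels was not tested.

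Among the factors that transcribe the genome, Polrmt and Tfb2m were called lower in hypoxic hearts, where 3.53% of all genes were called lower. Both calls ended when any heart but hypoxic heart 4 was left out. Polrmt, the mitochondrial RNA polymerase, was at 5.98, 7.51 and 7.28 TPM in RVH against 9.35, 9.25 and 9.48 TPM in RVN, and at 7.62, 5.86 and 7.48 TPM in LVH against 8.49, 8.31 and 6.80 TPM in LVN. It was lower without overlap in the RV, where the log2 fold change was -0.55 ± 0.13 (adjusted p = 0.0198), while the LV groups overlapped (-0.34 ± 0.13, adjusted p = 0.216); over hearts it was -0.45 ± 0.10 (adjusted p = 0.0428). Tfb2m was at 28.6, 27.1 and 29.3 TPM in RVH against 36.8, 36.999 and 37.6 TPM in RVN, and at 31.8, 29.1 and 34.6 TPM in LVH against 41.04, 36.6 and 42.3 TPM in LVN. Every hypoxic library was below every normoxic one. Its log2 fold change was -0.49 ± 0.09 in hearts (adjusted p = 0.0311), -0.50 ± 0.12 in the RV (0.0205) and -0.48 ± 0.12 in the LV (0.0741).

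Among the other 4 factors there was 1 call in hypoxia. This made 3 of the 6 factors called lower in the RV, where 7.6% of all genes were. Without the RVH library of rat 1 or 2, or the RVN library of rat 1, it was 0 of 6. Lrpprc, the stabilizer of mitochondrial messengers, was at 35.9, 40.99 and 39.95 TPM in RVH against 54.3, 44.7 and 44.6 TPM in RVN, and at 47.8, 40.5 and 52.0 TPM in LVH against 48.1, 53.3 and 54.5 TPM in LVN. It was called lower in the RV (-0.41 ± 0.12, adjusted p = 0.0437) and not in the LV (-0.31 ± 0.12, 0.221) or in hearts (-0.35 ± 0.10, 0.0711). Its partner Slirp was at 12.4 to 15.3 TPM in hypoxic libraries against 11.5 to 13.9 TPM in normoxic ones and was not called. Tfam, which packages and bends mitochondrial DNA, was at 37.1 to 40.9 TPM against 35.5 to 41.8 TPM, the hypoxic range lying inside the normoxic one. Tfb1m, an rRNA methyltransferase, was at 4.78 to 6.27 TPM against 4.64 to 5.91 TPM. Neither was called in any comparison.

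**Figure D3:**
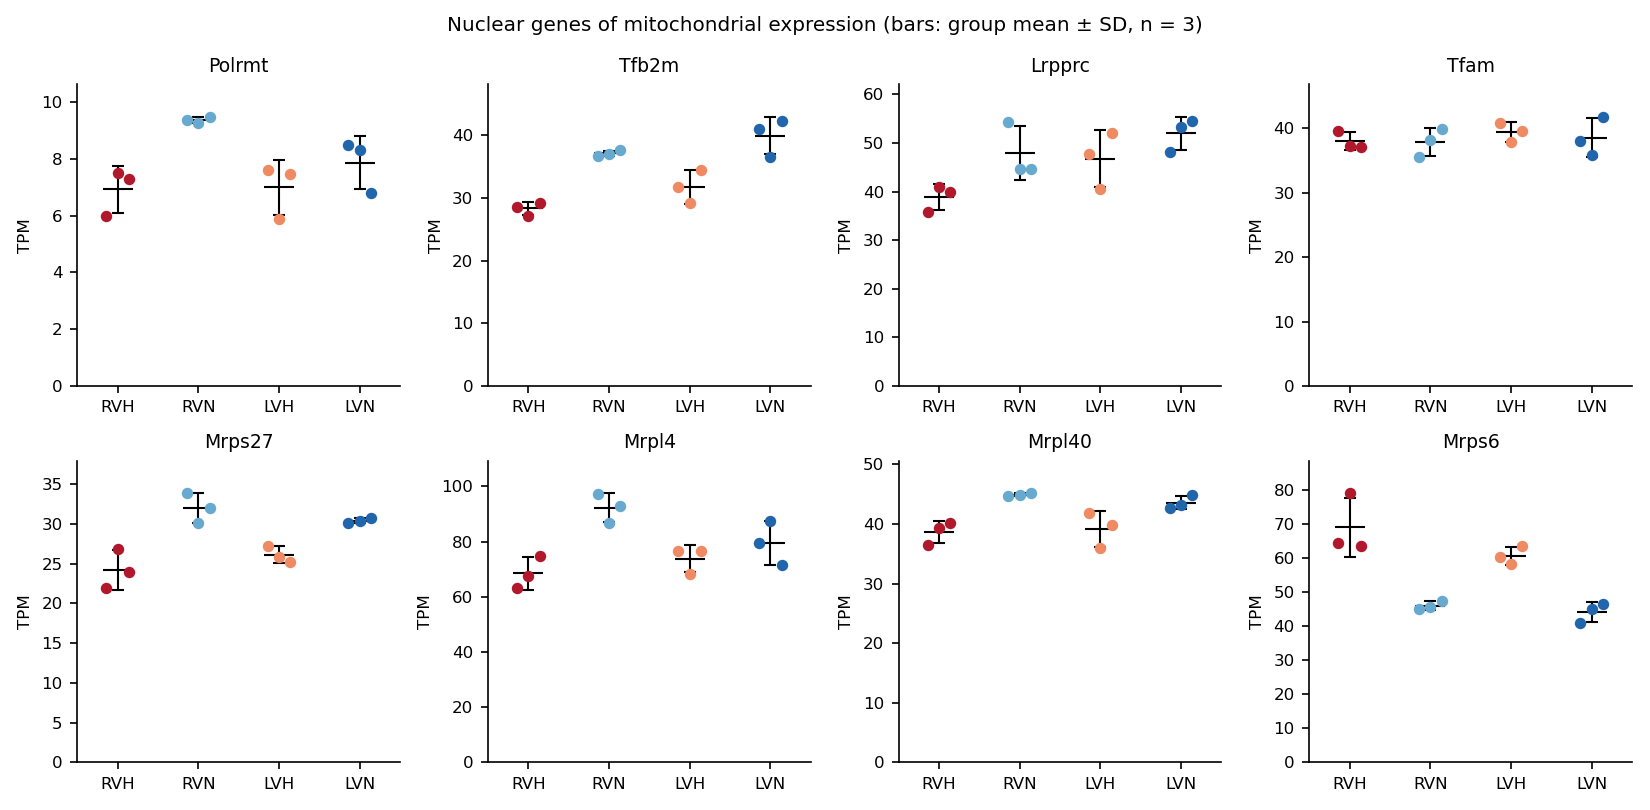
TPM (vertical axes from 0) of 4 factors and 4 mitoribosomal genes in RVH, RVN, LVH and LVN; points are libraries and bars the group mean ± SD (n = 3). Tfb2m, Mrps27 and Mrpl40 are lower and Mrps6 higher in every hypoxic than in any normoxic library, while Tfam has hypoxic levels of 37.1 to 40.9 TPM inside the normoxic range of 35.5 to 41.8 TPM.

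Of the 73 mitoribosomal genes tested in hypoxic hearts, 3 were called lower and 1 higher, where 3.53% and 4.24% of all genes were called, with a median log2 fold change of -0.06 against 0.01 over all genes (51 of 73 values negative; the median was 0.08 with library totals in place of TMM). In the RV the counts were also 3 lower and 1 higher, so that 6 of the 92 members were called lower and 1 higher where 7.6% and 7.43% of all genes were called, and in the LV they were 0 and 0 (8 lower and 2 higher at an unadjusted p under 0.05). Without the RVH library of rat 2 or the RVN library of rat 1, 0 members were called in the RV, and without the RVH library of rat 1 only Mrps6 was. Calls over all genes fell from 1022 higher and 1045 lower to 295 to 400 higher and 278 to 334 lower in these fits. By level the 74 genes ran from 369.5 TPM for Mrps36, since found in mammals to belong to the 2-oxoglutarate dehydrogenase complex, through Mrpl17 (165.3) and Mrps16 (152.4), down to 8.86 TPM for Mrpl1, 1.66 for Mrpl53 and 0.041 for Mrps21l (means of 12 libraries). Of these 6, Mrps21l was not tested and edgeR called none of the others in any comparison. Mrpl53, listed at 0 in 8 of 12 libraries, was called higher by DESeq2 in LVH against LVN and in RVN against LVN and by the likelihood ratio test in RV against LV. The rows spelled in lower case, mrpl11, mrpl24 and mrpl9, were called in none, with a median of -0.19 in hearts. At an unadjusted p under 0.05, 1 of them was lower in hearts and 1 in the LV.

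The genes called in hypoxia fell in both subunits. Mrps27, a small-subunit protein of the pentatricopeptide class, was at 21.9, 26.8 and 23.998 TPM in RVH against 33.9, 30.1 and 31.99 TPM in RVN, and at 27.3, 25.9 and 25.2 TPM in LVH against 30.1, 30.4 and 30.7 TPM in LVN. It was lower in every hypoxic library and had a log2 fold change of -0.45 ± 0.08 in hearts (adjusted p = 0.031), -0.52 ± 0.11 in the RV (0.0137) and -0.37 ± 0.11 in the LV (0.127). Mrpl40, of the large subunit, was at 36.5, 39.2 and 40.2 TPM in RVH against 44.6, 44.9 and 45.1 TPM in RVN, and at 41.8, 35.9 and 39.9 TPM in LVH against 42.7, 43.2 and 44.8 TPM in LVN. This gene too had no overlap (hearts -0.32 ± 0.08, adjusted p = 0.0488; RV -0.33 ± 0.10, 0.044; LV -0.31 ± 0.10, 0.139). Mrpl4 was at 63.1, 67.5 and 74.9 TPM in RVH against 97.1, 86.8 and 93.0 TPM in RVN, but at 76.4, 68.1 and 76.8 TPM in LVH against 79.6, 87.4 and 71.5 TPM in LVN. The RV groups were apart (-0.54 ± 0.13, adjusted p = 0.0242) and the LV groups overlapped; over hearts it was -0.42 ± 0.09 (0.0458), and the difference between the ventricles' effects was -0.27 ± 0.19 (0.763).

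Mrps6, a small-subunit protein, was called higher in hypoxia. It was at 64.5, 78.9 and 63.6 TPM in RVH against 44.98, 45.6 and 47.4 TPM in RVN, and at 60.1, 58.2 and 63.3 TPM in LVH against 40.9, 45.04 and 46.3 TPM in LVN. Every hypoxic library was higher, and the log2 fold change was 0.39 ± 0.09 in hearts (adjusted p = 0.0427), 0.46 ± 0.10 in the RV (0.0143) and 0.31 ± 0.10 in the LV (0.147). Of its 16 alternatives in the RV, 14 called it. In hearts, its call ended when any heart was left out, and also without the filter on low counts. In TPM, 5 more mitoribosomal genes lay wholly higher in hypoxia without a call in hearts, so that 6 of the 79 nuclear members tested did and 3 lay wholly lower, against 3.86% and 1.5% of all genes: Mrpl36 (65.5 to 90.7 against 50.2 to 58.8 TPM), Mrps12 (52.2 to 71.3 against 41.05 to 48.96), Mrpl20, Mrps25 and Mrps18a. Among the values that did not pass in the LV, Mrpl52 had 0.24 ± 0.09 (adjusted p = 0.221). Between the effects of hypoxia in RV and LV, the differences with the smallest p in each direction, none called, were 0.38 ± 0.15 for Mrpl32, 0.24 ± 0.16 for Mrpl57 and -0.26 ± 0.15 for Mrpl38.

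The sign of the mitoribosomal group depended on what the libraries were scaled to. Its 74 genes summed to 4643 to 5225 TPM in hypoxic libraries against 4406 to 4741 TPM in normoxic ones, and with plain library totals in place of TMM the hearts' median was 0.08, with 51 of 73 values positive. The same change brought the median of all genes to 0.15 in hearts, 0.12 in the RV, 0.17 in the LV and 0.16 between RV and LV. Per 1000000 TPM outside the mitochondrial genome, the 74 genes summed to 8548, 8463 and 8662 in RVH against 8679, 8624 and 8537 in RVN, and to 8210, 8050 and 8009 in LVH against 8913, 8720 and 8804 in LVN. The groups overlapped in the RV and were apart, with LVH lower, in the LV. The summed TPM of the mitochondrial genome over that of the 74 genes was 73.2 to 91.2 in hypoxic libraries against 95.1 to 114.8 in normoxic ones, without overlap.

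**Figure D4:**
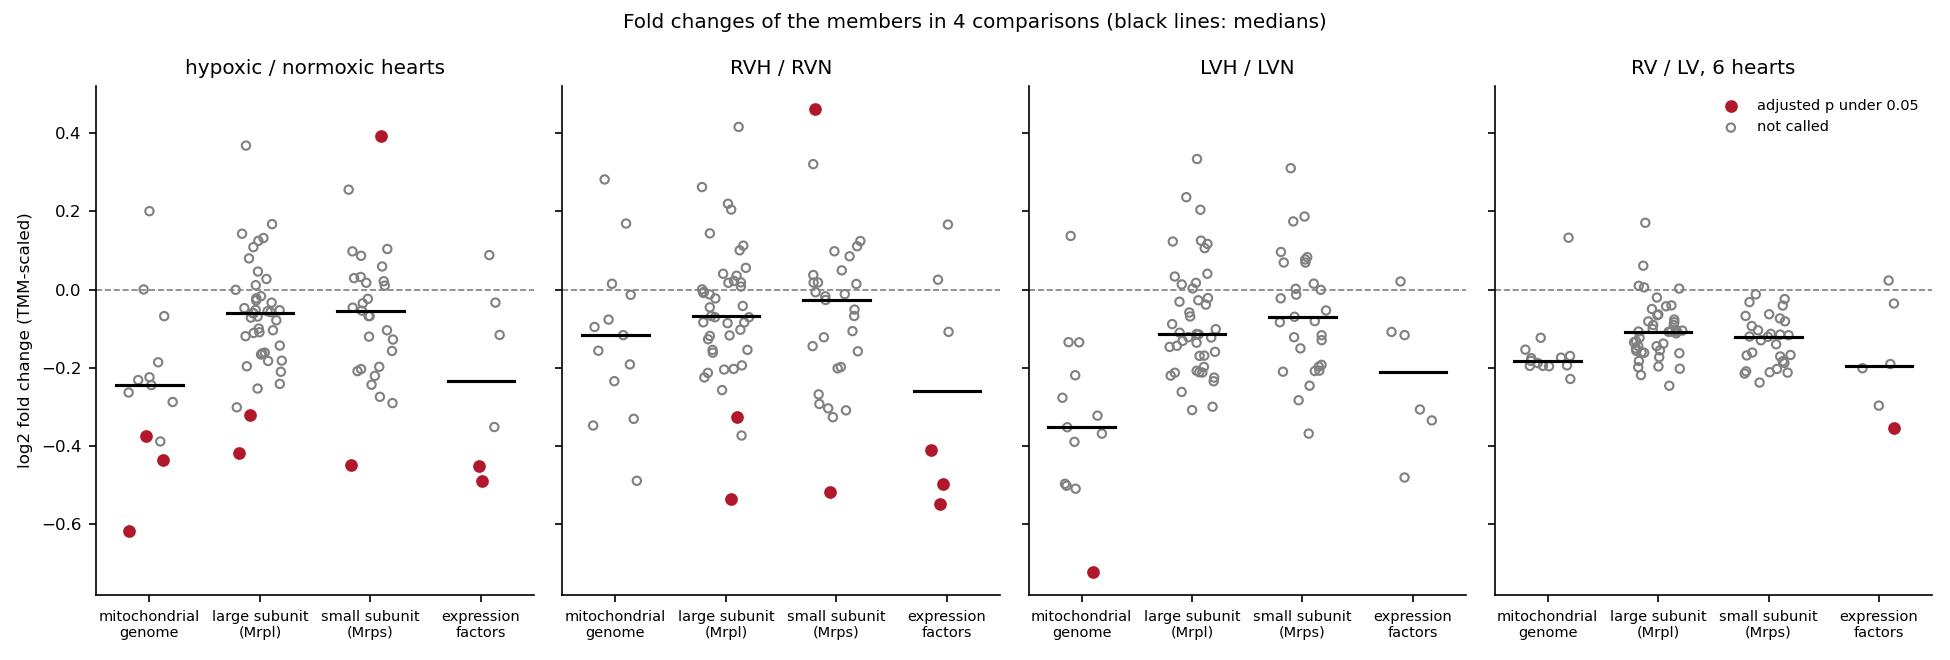
Log2 fold change (vertical axis, TMM-scaled) of the mitochondrial transcripts, large- and small-subunit genes and factors in hypoxic over normoxic hearts, RVH over RVN, LVH over LVN and RV over LV; each circle is a gene (Mrpl53, at 0 in most libraries, is not drawn), red where the adjusted p was under 0.05, and black lines are medians. Red points lie lower in every group of the first panel apart from Mrps6 (0.39), and the median of mitochondrial transcripts is -0.24 there. In the last panel, nearly all values are below 0 and Lrpprc (-0.35) is the only red point. With library totals in place of TMM, 55 of the 73 mitoribosomal values of that panel would be positive.

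The 2 ventricles of a heart differed in 1 called member. In RV against LV over 6 hearts, Lrpprc was the only member called, with a log2 fold change of -0.35 ± 0.07 (adjusted p = 0.0404), where 1.82% of all genes were called lower and 1.68% higher. It was -0.40 ± 0.12 in RVH against LVH (0.134) and -0.30 ± 0.12 in RVN against LVN (0.48). Tfb2m had -0.30 ± 0.07 over the 6 hearts (0.0771), -0.31 ± 0.12 in hypoxia and -0.29 ± 0.12 in normoxia. Of the 92 members, 84 had a negative value and 20 an unadjusted p under 0.05, all of these lower in RV, and the median was -0.13 against 0.00 over all genes. Of all 13756 genes, 1621 were lower and 1581 higher at an unadjusted p under 0.05. Without the RVH or the LVH library of hypoxic rat 2 the median was -0.06 or -0.07, with 75 or 77 negative values and 11 unadjusted p-values under 0.05 among the lower ones. With library totals in place of TMM, 55 of the 73 mitoribosomal values were positive (median 0.05, with all genes at 0.16), against 6 with TMM. Their direction therefore holds only relative to the other genes. Leaving out any library other than that of RVN or LVN of rat 1 ended the call of Lrpprc, as did the fit without the rat block. Calls over all genes fell in those fits too, from 231 higher and 250 lower to at most 107 higher and 121 lower.

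Within each exposure no member passed. Of all 13756 genes, 1134 were lower and 1166 higher at an unadjusted p under 0.05 in RVH against LVH. In RVN against LVN it was 621 lower and 657 higher. In RVH against LVH, 0 of 92 were called, where 0.174% of all genes were called higher and 0.276% lower; 6 had an unadjusted p under 0.05, all lower, and DESeq2 called 1. In RVN against LVN it was 0 of 92, where 0.0145% were called higher and 0.00727% lower; 10 had an unadjusted p under 0.05, all lower, and DESeq2 called 1 higher. The smallest p-values among mitoribosomal genes belonged to Mrps18a (-0.31 ± 0.10, adjusted p = 0.141) and Mrpl38 (-0.33 ± 0.11, 0.166) in hypoxia and to Mrpl13 (-0.24 ± 0.08, 0.419) and Mrps2 (-0.23 ± 0.08, 0.428) in normoxia, and over 6 hearts to Mrpl47 (-0.25 ± 0.07, 0.0919) and Mrps18a (-0.24 ± 0.07, 0.0957). On the positive side they were Mrpl49 (0.10 ± 0.10) and Mrpl43 (0.07 ± 0.08) in hypoxia, Mrpl52 (0.10 ± 0.09) in normoxia and Mrpl1 (0.17 ± 0.20) over 6 hearts. Mrpl53, with the smallest p of the positive values in normoxia and over 6 hearts, was at 5.65 TPM in the RVN library of rat 2 and listed at 0 in the other 5 normoxic libraries, so no fold is given.

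Other genes that process and translate mitochondrial RNA, taken from lists of the same pathway, were called lower and not higher in the RV, where 7.6% of all genes were called lower and 7.43% higher (in hearts 3.53% and 4.24%). Among 27 tested genes of mitochondrial RNA processing and decay, 7 were called lower and 0 higher in RVH against RVN, and 3 lower in hearts (28 tested). Mto1, which modifies mitochondrial tRNAs, had -0.59 ± 0.10 (adjusted p = 0.00569) in the RV, and Nsun4, an rRNA methyltransferase also counted with the ribosome assembly genes, -0.77 ± 0.20 (0.0261); the others named by p in hearts were Mto1 (-0.51 ± 0.08, 0.022) and Ptcd2 (-0.36 ± 0.08, 0.0423). Of 20 mitochondrial aminoacyl-tRNA synthetases and amidotransferase genes, which load tRNAs with amino acids, 7 were called lower in the RV and 3 in hearts, with 0 higher, and 20 of 20 RV values were negative (median -0.36). Iars2 was at 18.6, 21.4 and 20.5 TPM in RVH against 31.3, 27.1 and 27.2 TPM in RVN (-0.61 ± 0.11, adjusted p = 0.00813), and Aars2 had -0.64 ± 0.14 (0.0151). Of 14 translation factors, 2 were called lower in the RV, the elongation factor Gfm1 (-0.52 ± 0.13, adjusted p = 0.0223) and the recycling factor Mrrf (-0.38 ± 0.11, 0.0403), and Gfm1 also in hearts (-0.46 ± 0.10, 0.0418). Of 12 assembly genes, 2 were also called lower in the RV, Nsun4 and the GTPase Gtpbp10 (-0.41 ± 0.11, adjusted p = 0.037). These counts depended on single libraries: without the RVH library of rat 1 or 2, or the RVN library of rat 1, 1 processing gene, 1 synthetase and 0 translation or assembly genes were called in the RV. Without the RVH library of rat 4 it was 9, 10, 3 and 4, and scaled to plain library totals 2, 3, 1 and 0. In the LV, 0 genes of these lists were called, with 12, 7, 4 and 3 lower at an unadjusted p under 0.05. Between RV and LV, where 1.82% of all genes were called lower, the called genes were Gatb (-0.27 ± 0.05, adjusted p = 0.0456) and Guf1 (-0.29 ± 0.05, 0.0373). Of 22 alternatives, 3 called Gatb and 4 called Guf1. Among 20 genes of mitochondrial DNA replication and 5 mitoribosomal genes with other names, 0 were called by edgeR in any comparison (of the replication genes, 5 were lower and 2 higher at an unadjusted p under 0.05 in the RV, and DESeq2 called 1 lower there).

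Of the nuclear subunits that join the mitochondrial products, at most 2 per complex were called in the RV, where 7.6% of all genes were called lower and 7.43% higher. Of 34 complex I subunits, 1 was called in the RV, Ndufs7 (-0.54 ± 0.14, adjusted p = 0.0295), and 0 in hearts. In the RV, 28 of these 34 values were negative (median -0.19). Of 16 ATP synthase subunits 1 was called in the RV, Atp5a1 (-0.48 ± 0.14, adjusted p = 0.0436), of 9 complex III subunits 0 (2 higher and 1 lower scaled to plain library totals), and of 4 complex II genes, which have no partner in the mitochondrial genome, 1, Sdha (-0.51 ± 0.13, adjusted p = 0.0262). In complex IV, 2 of 13 were called higher in the RV and 0 lower: Cox8a (0.63 ± 0.15, adjusted p = 0.0205) and Cox6a1 (0.46 ± 0.13, 0.0334). The other 11 complex IV values in the RV were negative, with a median over the 13 of -0.11. In hearts 11 of the 13 were also negative (median -0.05). Scaled to plain library totals, the 2 medians were -0.01 and 0.09. Cox8a was at 719.9, 765.0 and 473.6 TPM in RVH against 391.9, 396.3 and 361.0 TPM in RVN, and it was also called in hearts (0.55 ± 0.12, adjusted p = 0.0434). The transcripts of the mitochondrial genome for the same complex, Mt-co1, Mt-co2 and Mt-cox3, had negative values in hearts. The counts of called subunits depended on single libraries. Without the RVH library of rat 1 or 2, or the RVN library of rat 1 or 3, 0 subunits were called in the RV. Without the RVH library of rat 4, 9 complex I, 3 complex II, 2 complex III and 4 ATP synthase subunits were called lower. In complex IV it was then 2 higher and 1 lower.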

How the data were processed

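RNA of both ventricles of 6 rats was sequenced as 12 stranded polyadenylated libraries with 50 bp single reads. The authors ran kallisto 0.43.1 on Ensembl transcripts (build Rnor 6.0, per the labels) and made gene values with tximport. The deposited TPM values were used as levels. The deposited estimated counts were a constant times TPM in each library, so a total is a nominal depth; depth limits precision most for rare transcripts such as Mrpl53. The 27 entries with a number for a name (0.0408% to 0.0621% of a library) were left out. Estimated counts were rounded, filtered with filterByExpr and fitted in edgeR 4.0.16 (R 4.3.3; glmQLFit and glmQLFTest on 4 group means, TMM factors 0.853 to 1.206), a fit first tested on simulated data. The alternatives were RLE scaling, library totals, scaling on nuclear genes, no filter, the likelihood ratio test, DESeq2 1.42.0, limma 3.58.1 on log2(TPM + 1) and log2(TPM + 0.1) (TPM of at least 1 in 3 libraries) or without a filter, blocks, and leaving out each library or heart. Title numbers pair RV and LV of a rat: residuals correlated at 0.0375 to 0.213 within a rat and at most 0.0415 between rats. The SE is the size of a log2 fold change over the root of its F statistic. Named mitoribosomal genes were, per comparison, those called, or with fewer than 2 calls the 2 smallest p-values in each direction, plus the 3 highest and 3 lowest levels; from other lists, up to 2 called genes with the smallest adjusted p per comparison. Genes, lists and tests were chosen with earlier results of these data known. Sequences of mitochondrial transcripts were not used here. Python 3.11.15, numpy 2.4.6, pandas 2.3.3 and matplotlib 3.10.9 were used.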

Additional observations from a re-analysis of the deposited data

How the results depend on the processing

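No called member, and no called gene of the other lists, changed direction under the alternatives run. Counts of members called moved most. In hearts (1 higher, 8 lower) the higher count was 4 with library totals and with either limma pseudocount, and 0 without the low-count filter and with a replicate block by the bare number. The lower count was 14 with DESeq2, 4 with the number block and 1 with limma without the TPM filter. Leaving out a heart gave 0 higher and 0 to 16 lower. In the RV (1 higher, 6 lower) the higher count was 2 with DESeq2, 3 with library totals, 4 and 5 with limma on log2(TPM + 0.1) and log2(TPM + 1), and 3 with limma without the filter, which gave 3 lower; leaving out a library gave 0 to 1 higher and 0 to 12 lower. In the LV (0 higher, 1 lower) DESeq2 and both limma pseudocounts gave 1 higher. The lower count there was 4 with DESeq2, 3 with library totals, the likelihood ratio test and both limma pseudocounts, 2 with the number block, and 0 with RLE, without the low-count filter and with limma without the TPM filter; leaving out a library gave 0 higher and 0 to 1 lower. DESeq2 gave 1 lower in RVH against LVH and 1 higher in RVN against LVN, where leaving out a library gave 0. Between RV and LV (0 higher, 1 lower) the likelihood ratio test gave 1 higher and 2 lower, while library totals, all 3 limma fits and the fit with no replicate block gave 0 lower; leaving out a library gave 0 higher and 0 to 1 lower. With the rat as a replicate block, RVH against LVH, RVN against LVN and the difference between ventricles still gave 0 and 0.

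The numbers name different rats in the 2 exposures, so the block by bare number is no pairing. The difference in mitochondrial-genome share ranged from -4.79 to -1.87 percentage points in the RV, -9.30 to -7.23 in the LV, 0.375 to 3.30 in RVH against LVH, -3.88 to -2.06 in RVN against LVN and -6.42 to -5.43 in hearts when each library or heart was left out; without Mt-co1 the LV difference was -5.87, and leaving haemoglobin genes out of the denominator moved none by more than the spread between replicates. The value of Mrpl1 between RV and LV was -0.071 to 0.346 with each library left out, turning to -0.071 without the RVN and -0.070 without the LVN library of rat 3.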

Other observations

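Among 12 regulators of mitochondrial biogenesis, Myc, a growth-promoting transcription factor, was called higher and Esrrb, an oestrogen-related receptor, lower in hypoxic hearts. Myc was at 5.395, 5.62 and 3.62 TPM in RVH against 2.08, 2.00 and 2.72 TPM in RVN, and at 5.95, 3.72 and 5.77 TPM in LVH against 1.52, 1.45 and 1.30 TPM in LVN. No hypoxic library overlapped a normoxic one, and its log2 fold change was 1.28 ± 0.11 in hearts (adjusted p = 0.00932), 0.96 ± 0.16 in the RV (0.00678) and 1.68 ± 0.17 in the LV (0.00164). Esrrb was at 3.49, 4.96 and 3.87 TPM in RVH against 6.44, 5.15 and 6.28 TPM in RVN, and at 4.28, 2.52 and 3.73 TPM in LVH against 5.04, 5.36 and 7.36 TPM in LVN. It was lower in every hypoxic library (hearts -0.76 ± 0.11, adjusted p = 0.0198; RV -0.67 ± 0.16, 0.0223; LV -0.93 ± 0.17, 0.0283). Over the 16 alternatives in hearts, Myc was called in 14 and Esrrb in 10. Without normoxic heart 1 or 2 neither was called. Without hypoxic heart 1 or 2, or normoxic heart 3, Esrrb was not called. In the LV, 7 of 16 alternatives called Esrrb. In the RV, 5 of the 12 were called lower and 1 higher, where 7.6% and 7.43% of all genes were; the lower count was 0 without the RVH library of rat 2 or the RVN library of rat 1 or 3, and 1 when scaled to plain library totals. Among them was Perm1, a muscle regulator of energy metabolism (-0.79 ± 0.17, adjusted p = 0.0137).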
